A study of Mus musculus with 9 samples.

Results

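Broad CTCF peaks are the longest stretches over which CTCF ChIP-seq signal was called without a break in female mouse neural stem cells (NSCs). They were taken from the merged peak set of the series as every peak on chromosomes 1 to 19 that spans at least 5 kb. This gave 5170 of the 217130 peaks on those chromosomes (2.38%), out of 225769 peaks in all. The median broad peak was 6600 bp long, 762 reached 10 kb, 34 reached 20 kb and the longest spanned 60300 bp. Together they covered 39.4 Mb, or 1.60% of chromosomes 1 to 19. No measured level entered the choice. A peak's length is itself a product of peak calling and of the merging of peaks called in each genotype, and all lengths are multiples of 150 bp.

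The series compares CTCF occupancy between 3 *Smchd1* genotypes in primary NSC lines grown as a monolayer with EGF and FGF from the cortices of female E14.5 embryos. All lines were of the C57Bl/6 strain. Control lines were *Smchd1* GFP/GFP, wild-type *Smchd1* with a GFP tag (3 libraries), and MommeD43-GFP lines carried the MommeD43 point mutation in the same tagged allele on both chromosomes (3 libraries). The *Smchd1* del/del lines, called null here, were derived in culture from flox/flox cells with a retrovirus that delivers Cre and puromycin resistance, followed by a week of drug selection (2 libraries). One further library was input chromatin from a control line and has no value in the table, so no level could be set against input. In the null, loss of SMCHD1 comes together with viral transduction, drug selection and an untagged allele, and these cannot be told apart.

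CTCF is a DNA-binding protein with an array of zinc fingers that halts the loop-extruding cohesin ring and so sets the borders of chromatin loops. It usually sits on a single short motif, which gives a narrow peak. SMCHD1 is a non-canonical SMC protein that silences the inactive X chromosome and some clustered and imprinted autosomal genes, and has been linked to exclusion of CTCF from its targets. A peak of many kilobases can hold several CTCF sites, as well as signal spread over open or gene-rich DNA that carries no motif.

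Each peak has 1 value per genotype, which the authors obtained by averaging log2 RPM (RPM, reads-per-million, the reads of a peak in proportion to library size) over its libraries. A long peak collects more reads, so levels are given here per kb: the log2 value less the log2 of the peak length in kb, in units of log2 RPM per kb. Where 3 levels are listed together, they are in the order control, MommeD43-GFP and null. Because the libraries were pooled, no value has an SD or a replicate n, no difference could be compared with the spread between lines, and no test was run. The median broad peak held 514 reads per library in control, 587 in MommeD43-GFP and 600 in null. Counting alone gives such values log2 errors of 0.04, 0.03 and 0.04, and every SE below covers counting alone.

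The core CTCF motif was searched on both strands. Of the broad peaks that lead the gene lists described further on, apart from the one at *Mbp*, the 12 motif matches in those with the highest level per kb are printed, because they show what the CTCF sequence inside a broad peak looks like. Each line gives a match with 15 bases on either side from the RefSeq copy of GRCm38.p6, 5′ to 3′ on the strand of the motif, with the motif in capitals.
*Gm12213* peak, chr11:53737290-53737331, minus strand: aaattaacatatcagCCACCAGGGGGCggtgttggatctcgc
*Gm12213* peak, chr11:53737780-53737821, plus strand: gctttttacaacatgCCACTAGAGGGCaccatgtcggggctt
*Pdgfra* intron, chr5:75156357-75156398, minus strand: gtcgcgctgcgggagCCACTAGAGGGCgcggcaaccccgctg
*Rbfox3* intron, chr11:118739050-118739091, minus strand: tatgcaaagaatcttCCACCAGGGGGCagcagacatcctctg
*Rbfox3* intron, chr11:118740160-118740201, minus strand: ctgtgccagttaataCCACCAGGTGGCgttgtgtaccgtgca
*Rpl38* peak, chr11:114672853-114672894, plus strand: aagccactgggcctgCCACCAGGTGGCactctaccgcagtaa
*Bcan* peak, chr3:87987129-87987170, minus strand: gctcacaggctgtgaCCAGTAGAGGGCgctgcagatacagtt
*Col1a1* intron, chr11:94937161-94937202, minus strand: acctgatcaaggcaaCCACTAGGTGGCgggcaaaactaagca
*Cdkn1c* and *Slc22a18* peak, chr7:143464065-143464106, minus strand: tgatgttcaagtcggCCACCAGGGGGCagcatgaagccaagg
*Cdkn1c* and *Slc22a18* peak, chr7:143466483-143466524, minus strand: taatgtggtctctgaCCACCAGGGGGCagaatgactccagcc
*Ttc21a* and *Cx3cr1* intron, chr9:119963423-119963464, plus strand: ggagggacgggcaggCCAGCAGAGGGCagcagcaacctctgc
*Usp29* intron, chr7:6937301-6937342, minus strand: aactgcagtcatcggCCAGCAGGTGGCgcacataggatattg

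Where 2 matches are listed for 1 peak, they lie in the same broad peak. The *Gm12213* pair points in opposite directions and the *Rbfox3* and *Cdkn1c* pairs point in the same direction. The *Gm12213*, *Rpl38*, *Bcan* and *Cdkn1c* matches lie between annotated genes.

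A core motif was found in 1851 broad peaks (35.8%, exact binomial 95% interval 34.5 to 37.1), against 0.642% of peaks under 1 kb, 4.43% of peaks of 1 to 2 kb and 14.6% of peaks of 2 to 5 kb. Longer peaks have more room for a match, and the density of matches went from 0.112 per 10 kb in the shortest class through 0.326 and 0.505 to 0.551 in broad peaks. In 4370 shorter peaks at or above the 10th percentile of the mean value of broad peaks, 31.3% held a core motif, at 0.90 matches per 10 kb. This is a floor and does not match read numbers. Their median reads per library were 350 in control, 407 in MommeD43-GFP and 439 in null, fewer than in broad peaks. In the stretches of equal length directly beside each broad peak, 8.54% held a core motif, at 0.121 matches per 10 kb. A relaxed form of the motif, which allows more letters, was present in 82.3% of broad peaks and in 55.6% of the flanks. Of the 2169 core matches in broad peaks, 1103 were on the plus and 1066 on the minus strand, and 67.7% lay in the inner 50% of their peak. There were 275 broad peaks with at least 2 matches, of which 118 had matches on both strands. The other 3319 broad peaks held no core match, which says only that this string is not in them.

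**Figure D1:**
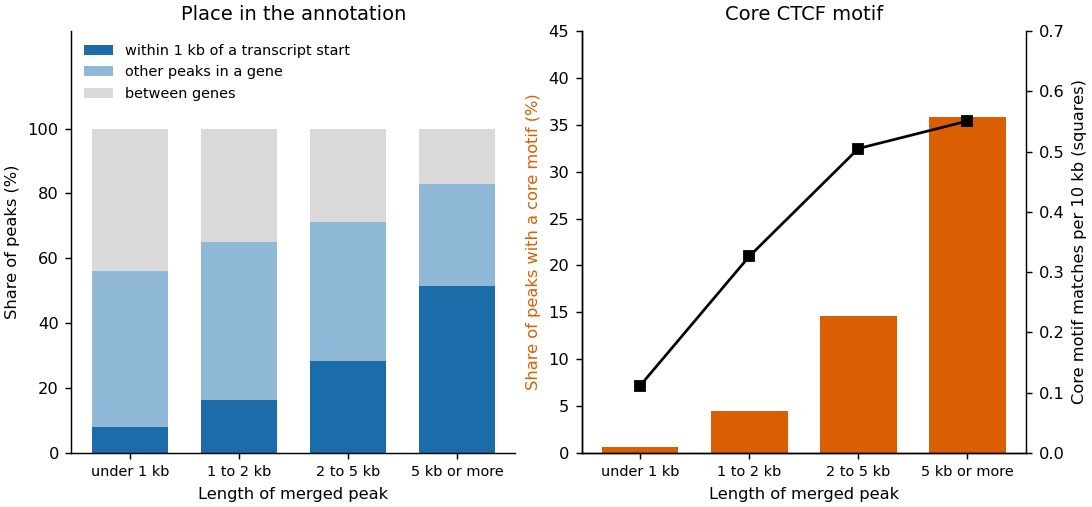
Left, share of peaks on chromosomes 1 to 19 (%) within 1 kb of an annotated transcript start, elsewhere in a gene or between genes, by length of the merged peak. Right, share of peaks with a core CTCF motif (bars, %) and matches per 10 kb (squares). Broad peaks have the highest share near transcript starts (51.3%) and with a motif (35.8%), while the density of matches is 0.505 per 10 kb in peaks of 2 to 5 kb and 0.551 in broad peaks.

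Broad peaks lay mostly at genes. The start of at least 1 transcript in the GENCODE M21 annotation fell in or within 1 kb of 2654 of them (51.3%, exact 95% interval 49.96 to 52.7), 1628 others (31.5%) overlapped a gene and 888 (17.2%) lay between genes. For peaks under 1 kb the share near a transcript start was 7.96%, and for the equal-length flanks it was 47.2%. Many genes have several annotated starts, some well inside the gene, and only 1766 broad peaks (34.2%, exact 95% interval 32.9 to 35.5) came within 1 kb of the 5′ end of a gene, beside 31.2% of the flanks. The median exon content was 8.57% in broad peaks and 5.40% in flanks, the median GC content was 51.2% and 49.2%, and the median share of soft-masked repeats was 17.8% and 23.4%. Over shorter length classes the median GC content was 47.6%, 47.8% and 48.8%.

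In all, 2420 of 20780 protein-coding genes on these chromosomes (11.6%) had a transcript start at a broad peak and 1491 (7.18%) had their 5′ end there. There were 387 broad peaks at transcript starts of 2 or more coding genes and 221 at the 5′ ends of 2 or more. The most crowded was a peak on chromosome 7 (chr7:127012201-127026450, 14250 bp) with the 5′ ends of 6 coding genes, among them *Maz*, a zinc finger transcription factor gene, *Mvp*, which encodes the major vault protein, and *Prrt2*, a gene for a synaptic membrane protein. Among single genes, *Gse1*, a gene for a nuclear coiled-coil protein, held 137990 bp of broad peaks, or 39.1% of its length, in 11 peaks. The transcription factor gene *Camta1* had 12 broad peaks over 85800 bp, *Nav2*, a neuron navigator gene, had 10, *Zmiz1*, which encodes a transcriptional coactivator, had 9 and *Rbfox3*, the gene of the neuronal marker NeuN, had 8. *Lrp1*, a large lipoprotein receptor gene, was covered over 51.7% of its length by 4 broad peaks. *Gm20388* (81 peaks) and *Fgfr2* (11 peaks) rank high only through annotated spans of 4.43 and 2.96 Mb, and 16 gene-body peaks rested on these spans alone.

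The density of broad peaks varied widely between chromosomes. Chromosome 11, which is rich in genes, had 556 broad peaks or 45.5 per 10 Mb, followed by chromosome 7 with 31.7, chromosome 17 with 31.5 and chromosome 4 with 31.1. Chromosome 13 had 74, or 6.15 per 10 Mb, and chromosome 3 had 7.62. As a share of all peaks of the chromosome they ran from 0.626% on chromosome 13 to 4.64% on chromosome 11.

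Most broad peaks had others nearby. With gaps of up to 100 kb, 3558 of them (68.8%) fell into 537 groups of 3 or more, too many to name singly, so the largest are described. The largest held 67 broad peaks over 2.03 Mb of chromosome 10 (79578151 to 81606450), of which 32.6% was broad peak, with transcript starts of 68 coding genes and the 5′ ends of 54, such as *Stk11*, a kinase gene and tumour suppressor, *Cirbp*, which encodes a cold-inducible RNA-binding protein, *Dot1l*, which encodes the histone H3 lysine methyltransferase of transcribed genes, and *Eef2*, the gene of a translation elongation factor. Its median difference from control was -0.07 in MommeD43-GFP and -0.15 in null, and 4 of its 67 peaks were above control in the null. The next groups were 36 peaks around *Gse1* on chromosome 8, 34 around *Abl1* and *Dnm1* on chromosome 2 and 33 around *Mfng* and *Polr2f* on chromosome 15, with null medians of -0.11, -0.16 and -0.11. The *Apoe* group on chromosome 7, with 30 peaks, had a null median of -0.03. The median GC contents of these groups were 51.3 to 53.1%, where all broad peaks had 51.2%.

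The 10 longest peaks each spanned at least 26550 bp. The longest lay on chromosome 4 (chr4:152115601-152175900) and took in the 5′ ends of *Tnfrsf25*, a death receptor gene, *Espn*, which encodes an actin-bundling protein of stereocilia, and *Hes2*, a Notch-related repressor gene. Its level per kb was 1.09, 1.12 and 0.97. The second (chr1:88225051-88270800, 45750 bp) took in the 5′ end of *Mroh2a* and an internal transcript start of *Hjurp*, the chaperone gene of the centromeric histone CENP-A, at 1.98, 1.86 and 1.65. Then came *Dagla* with *Myrf*, the gene of a transcription factor of myelination (chr19:10238251-10270500, 32250 bp, level per kb 0.90, 0.78 and 0.71), and the *Sh3glb2*, *Miga2* and *Nup188* peak on chromosome 2 (30450 bp, 0.43, 0.43 and 0.28). Of the 10 longest, the peak inside *Pald1* alone was not below control in the null, with a difference of 0.01, while differences in MommeD43-GFP ran from -0.19 at *Gse1* and *Gins2* to 0.07 inside *Gse1*.

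Of the 4 length classes, broad peaks had the highest median level per kb. Their median level was 0.83 in control, 0.78 in MommeD43-GFP and 0.79 in null, against 0.35, 0.41 and 0.42 for peaks of 2 to 5 kb and close to 0 for shorter ones. The 4370 shorter peaks above the floor on mean value, which are chosen for a high level, had medians of 1.24, 1.22 and 1.30. For broad peaks the control median corresponds to 1.78 RPM per kb, 4.84 times what an even spread of reads over the genome would give (0.367). The middle 80% of broad peaks lay between 0.21 and 1.33 in control, and 23 reached 2. Broad peaks took 7.35% of all reads in control and 7.10% and 7.09% in MommeD43-GFP and null.

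**Figure D2:**
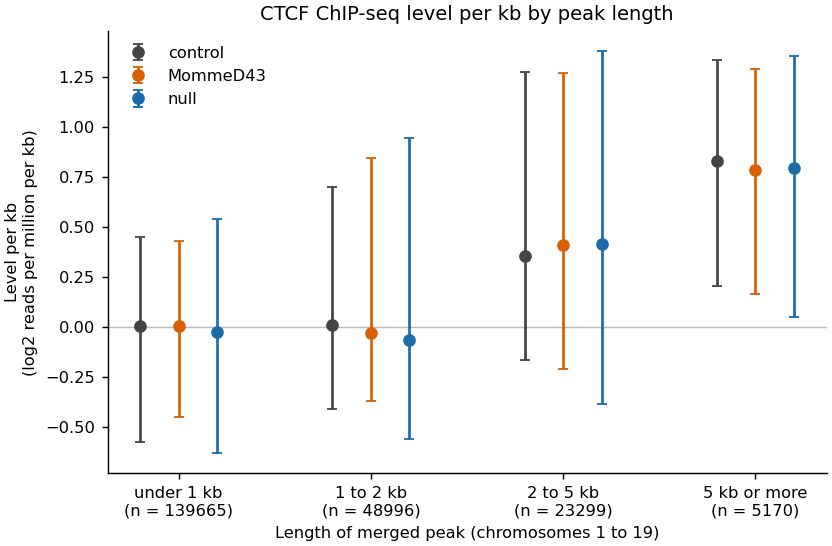
Level per kb (log2 RPM per kb, y axis) of merged peaks in 4 length classes (x axis) for control, MommeD43-GFP and null. Points are medians over peaks and bars run from the 10th to the 90th percentile. The median of broad peaks lies between 0.78 and 0.83 in every genotype, above those of the shorter classes.

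The highest level per kb was that of a 6750 bp peak over a ribosomal RNA fragment on chromosome 17 (chr17:39842401-39849150, genes *Gm26917* and *CT010467.1*), at 6.34, 5.79 and 5.37. Ribosomal RNA genes exist in many copies of which the assembly holds few, so this peak cannot be read as 1 locus. Next was an internal transcript start of *Sfi1*, a centrin-binding protein gene (chr11:3183901-3189900), at 3.94, 3.91 and 3.76. A pair of peaks on the *Trpm8* side of the 45750 bp *Hjurp* peak followed: *Trpm8*, the gene of the cold-sensing channel (chr1:88282651-88293450), at 2.82, 2.88 and 2.99, and *Hjurp* with *Trpm8* (chr1:88271251-88278900) at 2.61, 2.49 and 2.71. *Lif*, which encodes a cytokine that keeps stem cells from differentiating, was at 2.36, 2.27 and 2.44, and *Dgat2*, a triglyceride synthesis gene, at 2.24, 2.00 and 1.97. Of the 10 highest, *Gm12213*, *Trpm8* and *Gm25622* held core motifs, 2 each. At the low end, the peak at *Uba2*, a SUMO-activating enzyme gene, was at -0.53, -0.08 and -0.36.

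Peaks on either side of the length threshold had like values. The 315 peaks of 5100 bp, the shortest inside, had a median control level per kb of 0.75, and the 380 of 4950 bp, the longest outside, had 0.72. Core motifs were present in 27.0% and 26.3% of them and transcript starts at 36.5% and 38.4%. Their median null differences were -0.02 in both.

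Whether the MommeD43 mutation alters CTCF signal at broad peaks was asked first. Differences were small. The median was -0.048 (order-statistic 95% interval -0.053 to -0.045, which treats peaks as independent), the middle 80% lay between -0.20 and 0.12, and 34.3% of broad peaks were above control. At least 1.5-fold higher were 2 broad peaks (0.0387%), where 8.54% of all peaks on chromosomes 1 to 19 were, and at least 1.5-fold lower was 1 (0.0193%), where the background was 5.75%. Past a lower threshold of 0.32 log2 units, 33 were higher (0.638%, background 20.8%) and 65 lower (1.26%, background 18.1%). None reached 2-fold either way, against backgrounds of 2.06% higher and 0.712% lower. Short peaks hold fewer reads, and their counting error moves with these shares: the SD of differences expected from counting alone was 0.25 for peaks under 1 kb and 0.05 for broad peaks, where the observed SDs were 0.49 and 0.13.

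The broad peaks furthest above control in MommeD43-GFP lay at few well-known genes. The 2 that passed 1.5-fold were a peak in the non-coding gene *Gm49692* on chromosome 12 (chr12:20277601-20283750), at -0.44, 0.49 and -0.84 (1.91-fold, counting SE 0.07), and one at the 5′ end of *Ajap1*, which encodes a membrane protein of adherens junctions (chr4:153482851-153488250), at -0.11, 0.55 and 1.04. *Gm49692* was thus higher than control in MommeD43-GFP and lower in null, whereas *Ajap1* was above control in both. Next came *Il34*, the gene of a microglial growth factor, with a difference of 0.51, and *4930470P17Rik* with 0.49. Among the peaks furthest below control were the ribosomal RNA peak (-0.55), *Sipa1l3* (-0.54), *Rph3a*, which encodes a synaptic vesicle protein (-0.50), an internal transcript start of *Lpin1*, a phosphatidate phosphatase gene (-0.47), and the 5′ end of *Cd9*, a tetraspanin gene (-0.47).

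The null lines address the absence of SMCHD1. The null differences were wider than those of the point mutant, with an SD of 0.19 against 0.13. The median was -0.061 (95% interval -0.067 to -0.054, again treating peaks as independent) and 36.9% of broad peaks were above control. At least 1.5-fold higher were 9 broad peaks (0.174%, background 10.5%) and at least 1.5-fold lower were 27 (0.522%, background 10.2%). Past 0.32 log2 units the counts were 164 higher (3.17%, background 21.7%) and 374 lower (7.23%, background 24.8%). One was at least 2-fold higher and none 2-fold lower, where the backgrounds were 3.18% and 1.82%. Every broad peak had at least 156 reads per library in each genotype.

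The broad peak at least 2-fold higher in the null was at *Ajap1* (2.21-fold, counting SE 0.07). After it came *4930553I04Rik* on chromosome 5 (chr5:128728501-128735100), at 0.86, 1.17 and 1.60, and a peak in *4930470P17Rik* on chromosome 2 (chr2:170594101-170599800), at 0.32, 0.80 and 1.04. A pair of neighbouring broad peaks on chromosome 16, both over 50 kb from any transcript start (chr16:5465851-5474850 and chr16:5533651-5540100) was 1.61-fold and 1.52-fold above control. Inside *Glra1*, a glycine receptor gene, the level was -0.12, 0.21 and 0.48. In 8 of these 9 peaks the MommeD43-GFP value was also above control and below the null value, the exception being a peak on chromosome 12 (chr12:17792701-17797800) at -0.07, -0.19 and 0.59. Control values are shared by both comparisons, so a low control value raises both differences.

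The broad peaks furthest below control in the null were led by the ribosomal RNA peak (1.97-fold lower) and a repeat-rich peak among vomeronasal receptor pseudogenes on chromosome 7 (chr7:12010051-12016950, 57.5% soft-masked), at 0.98, 0.54 and 0.10. Inside *Llgl2*, a cell polarity gene (chr11:115843051-115848150), the level was 0.26, 0.20 and -0.52. At the 5′ end of *Isyna1*, the inositol synthase gene, and the 3′ part of *Ssbp4* (chr8:70592551-70601100) it was 0.66, 0.70 and -0.07. At *Vps9d1* it was 0.40, 0.24 and -0.32 and at *R3hdml* 0.02, -0.28 and -0.69. Lower values were also found at internal transcript starts of *Ptprs*, a receptor phosphatase gene of axon growth (-0.68), and *Lrp8*, a reelin receptor gene (-0.61), and at the 5′ end of *Sp5*, a Wnt-responsive transcription factor gene (-0.62). A peak at an internal transcript start of *Hic1*, a repressor gene, was just short of 1.5-fold (-0.55). At *Llgl2*, *Isyna1* and *Hic1* the MommeD43-GFP value stayed within 0.11 of control. Of the 27 lower peaks 15 were near a transcript start and 1 held a core motif, compared with 3 and 2 of the 9 higher peaks. Among all broad peaks 51.3% were near a transcript start, close to the share of the lower peaks, and 35.8% held a core motif.

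**Figure D3:**
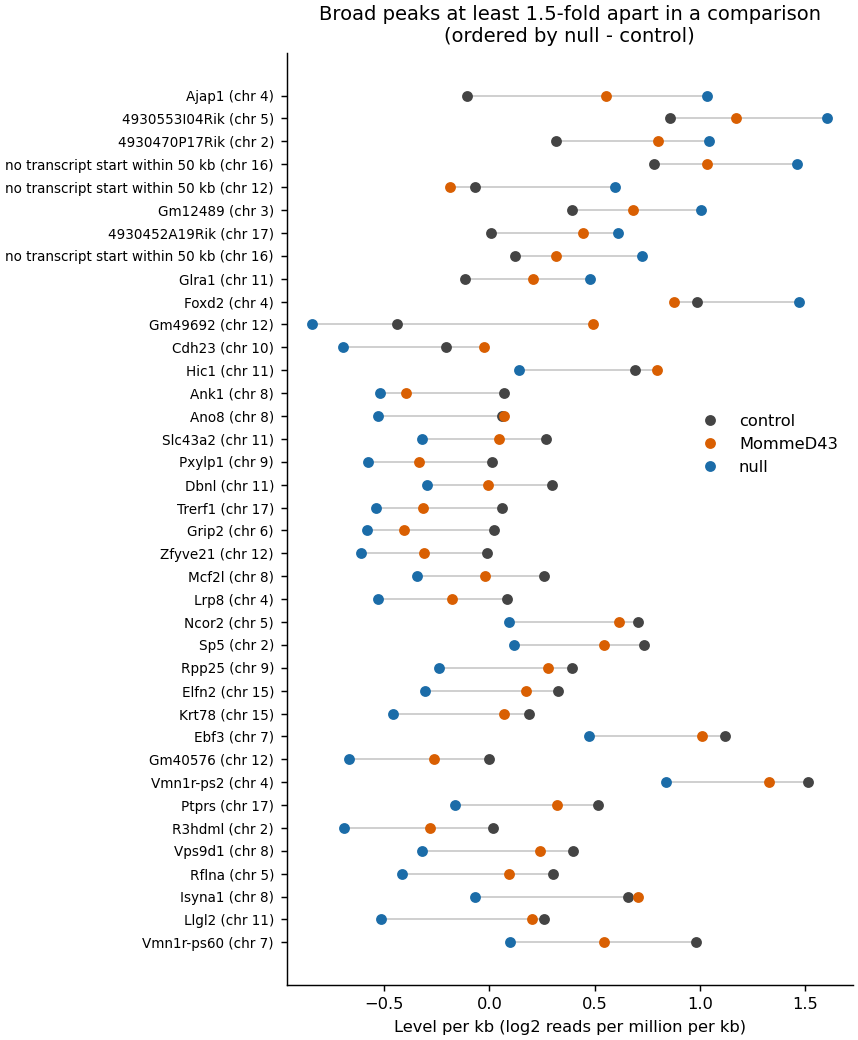
Level per kb (log2 RPM per kb, x axis) in control (grey), MommeD43-GFP (orange) and null (blue) for the broad peaks at least 1.5-fold apart in any comparison, ordered by null less control and labelled by gene or nearest gene. The ribosomal RNA peak, at 6.34 in control, is left out for scale, and the peak at least 1.5-fold lower in MommeD43-GFP than in control is not shown. *Ajap1* is at the top and the peak near *Vmn1r-ps60* at the bottom, and most MommeD43-GFP points lie between control and null.

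Set against each other, MommeD43-GFP and null had a median difference of 0.0028 (95% interval -0.0018 to 0.0070, again treating peaks as independent). MommeD43-GFP was at least 1.5-fold higher at 6 broad peaks (0.116%, background 7.86%) and lower at 2 (0.0387%, background 5.92%). Past 0.32 log2 units, 153 were higher (2.96%, background 22%) and 59 lower (1.14%, background 16.6%), and at 2-fold 1 was higher and none lower, with backgrounds of 1.24% and 1.02%. The 2-fold peak was *Gm49692* (2.52-fold). The others higher in MommeD43-GFP were *Isyna1*, *Llgl2*, *Hic1*, *Cdh23*, a cadherin gene of hair cells (-0.21, -0.03 and -0.70), and *Ano8*. Lower than null was *Foxd2*, a forkhead transcription factor gene, where a 10200 bp peak at the 5′ end was at 0.99, 0.88 and 1.47, and the intergenic peak on chromosome 12 given before.

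The differences moved with base composition. Across broad peaks Pearson's r between GC content and difference was -0.47 for MommeD43-GFP less control and -0.50 for null less control (n = 5170 peaks that share libraries, given as a description). Among the 1293 peaks lowest in GC content (42.2 to 49.3%) the medians were 0.04 and 0.08, with 135 peaks over 0.32 log2 units higher in the null and 21 lower. Among the 1293 highest, which reach 61.5%, they were -0.11 and -0.15, with 5 higher and 174 lower. When each difference was centred on peaks of like GC content, the medians turned to 0.021 and 0.061, and broad peaks 1.5-fold lower in the null numbered 4 in place of 27. With each column centred on its median over all peaks, the null median was -0.00043, with 24 peaks 1.5-fold higher and 12 lower. The direction of the median against control therefore depends on the scaling. After centring on GC content, the 4 peaks still 1.5-fold lower in the null were the ribosomal RNA peak (-0.82) and those at or near *Vmn1r-ps60* (-0.73), *Llgl2* (-0.62) and *Rflna* (-0.60). Centred null differences were -0.57 at *Isyna1*, -0.52 at *Ptprs*, -0.46 at *Sp5* and -0.45 at *Lrp8*, all short of 1.5-fold, and 1.30 at *Ajap1*. Whether GC content accounts for any single difference was not tested.

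**Figure D4:**
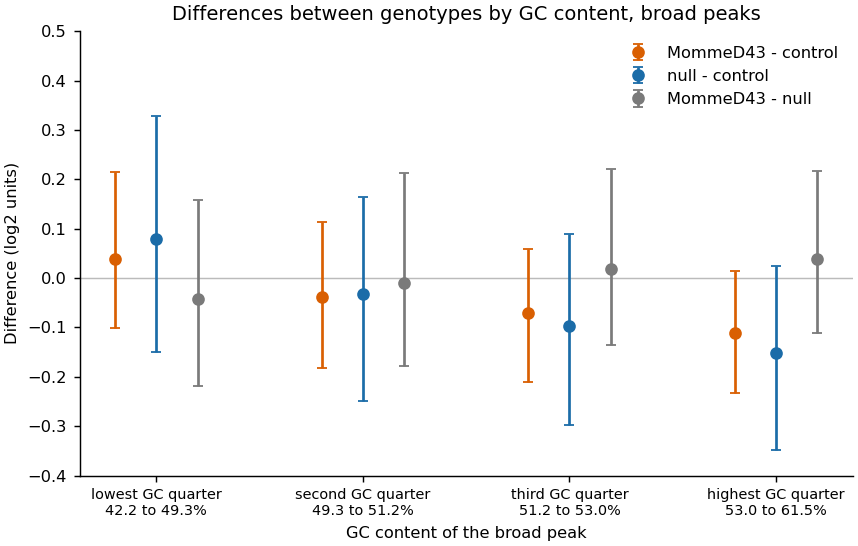
Difference between genotypes (log2 units, y axis) of broad peaks split into 4 bins of like size by GC content (x axis, with the range of each bin). Points are medians over peaks and bars run from the 10th to the 90th percentile. Median differences from control are 0.04 and 0.08 in the lowest bin and -0.11 and -0.15 in the highest.

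Level, length and motif also went with the null difference. In the 1293 broad peaks with the lowest level the null median was -0.16, with 258 peaks over 0.32 log2 units lower and 40 higher. In the 1293 with the highest level it was -0.0048, with 21 lower and 43 higher, while the MommeD43-GFP medians of these sets were -0.05 in both. Level and difference share values, so a low null value can itself help to place a peak in the lowest set. Broad peaks with a core motif had a null median of -0.02 and those without one -0.08, whereas in MommeD43-GFP both were at -0.05. The 34 peaks of 20 kb or more had a null median of -0.12 and 8.82% of them were above control. Peaks near transcript starts had null and MommeD43-GFP medians of -0.08 and -0.06, gene-body peaks -0.05 and -0.04, and intergenic peaks -0.00039 and -0.02, in the order of their median GC contents of 52.1, 50.6 and 49.6%. The 4370 shorter peaks above the floor on mean value had a null median of 0.05 and a median GC content of 49.1%. That floor is on the mean over the genotypes, so a high null value helps a peak to enter the set. Of these peaks, 473 (10.8%) were over 0.32 log2 units higher in the null and 73 (1.67%) lower. The shares over all peaks of chromosomes 1 to 19 were 21.7% and 24.8%.

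Over chromosomes the medians were narrow. They ran from -0.08 on chromosome 12 to -0.03 on chromosome 3 in MommeD43-GFP, and from -0.10 on chromosome 17 to 0.01 on chromosome 14 in null.

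Gene lists were then set against all protein-coding genes, of which 3730 (17.95%) had a broad peak over the gene or within 1 kb of a transcript start. The lists are described by such shares, and no difference between a list and all genes was tested. Among known targets of SMCHD1, none lay in the clustered protocadherins, whose cell-surface proteins give neurons an identity. The *Hox* clusters of developmental regulators held 1, at *Hoxc5* and *Hoxc6* (chr15:103009501-103014900), with 0.51, 0.46 and 0.59. Of 46 imprinted genes, expressed from 1 parental copy, 9 (19.6%) had broad peaks, 12 in all, a share near that of all coding genes. Their medians were -0.06 in MommeD43-GFP and -0.01 in null, beside -0.048 and -0.061 over all broad peaks. In the null 1 of the 12 was over 0.32 log2 units higher and 2 lower, where 3.17% and 7.23% of all broad peaks were.

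Among imprinted genes the highest level per kb was at *Cdkn1c*, a growth-restraining cell cycle inhibitor gene, and *Slc22a18* (chr7:143461951-143472900), which hold the paired motifs printed above, with 1.33, 1.20 and 1.32. In *Usp29*, of the *Peg3* domain (chr7:6936751-6942450), the level went from 0.83 in control through 0.94 in MommeD43-GFP to 1.27 in null, a difference of 0.45 (counting SE 0.06). This intron peak holds 2 core motifs, of which one is printed above. At the 5′ end of *Kcnq1*, a potassium channel gene of the same domain as *Cdkn1c* (chr7:143106601-143113050), values ran the other way, with 0.33, 0.07 and -0.09. At *H19*, the non-coding RNA gene whose control region is a classical CTCF-bound insulator (chr7:142578301-142583700), they were 1.16, 1.13 and 1.36, and at *Gnas* and *Nespas* 0.55, 0.56 and 0.47. Only *Usp29*, *Kcnq1* and one *Trappc9* peak (-0.40) differed by over 0.32 log2 units from control in the null among the 12.

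In large receptor and keratin families the shares were lower. None overlapped a vomeronasal receptor gene of 328 or a histone gene of 70, and 1 overlapped any of 1397 olfactory receptor genes, the pseudogene *Olfr1398-ps1* (0.61, 0.76 and 1.06). Of 3 at keratin genes, *Krt78* (chr15:101949601-101955750) was at 0.19, 0.07 and -0.46 and passed 1.5-fold in the null. Zinc finger genes of the Zfp series had 34 broad peaks at 29 of 367 genes with null and MommeD43-GFP medians of -0.0019 and -0.02, and the highest level was at *Zfp516* (2.11, 2.04 and 2.11). The widest differences of that list were at *Zfp276* in MommeD43-GFP (-0.43) and *Zfp647* in null (0.34).

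Of 83 ribosomal protein genes, which encode parts of the ribosome and are active in every cell, 24 (28.9%) had a broad peak, 26 in all, with a median control level per kb of 0.96 and medians of 0.02 in MommeD43-GFP and -0.0071 in null. Their range was wide: at *Rpl26* (chr11:68902801-68907900) the level was -0.07, 0.25 and 0.48, and at *Rpl28* it was -0.0029, 0.25 and 0.48, whereas at *Rpl36* it was 1.11, 0.96 and 0.67 and at *Tlcd1* with *Rpl23a* 1.35, 0.94 and 0.99. *Rpl38*, whose peak holds a motif printed above, was the highest at 1.58, 1.58 and 1.78. Of 18 cytoskeleton and translation genes 5 had broad peaks (*Actb*, *Eef2*, *Gapdh*, *Hsp90ab1* and *Tubb5*), with medians of -0.08 and -0.05. The 2 peaks at *Eef2* differed: the one upstream (chr10:81169801-81176250) was at 1.15, 1.18 and 1.08 and the one over its 5′ end and that of *Dapk3* (chr10:81176551-81183000) at 0.60, 0.47 and 0.19.

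Notch signalling keeps neural progenitors from differentiating. Of 18 genes of the pathway 10 (55.6%) had broad peaks, 12 in all, none with a core motif. Of the 12, 10 were lower in null than in MommeD43-GFP, where 50.7% of all broad peaks were, and the median of that difference was 0.08, or 0.04 after centring on GC content. The null median was -0.14 and the MommeD43-GFP median -0.06, at a median GC content of 54.3%, and centred on GC content these medians were 0.0038 and 0.07. Among ligands, *Jag1* had the highest level, with 1.39, 1.14 and 1.27, *Jag2* was at 0.28, 0.19 and 0.08 and *Dll3* at 0.78, 0.87 and 0.81. Among receptors, a peak at an internal transcript start of *Notch1* (chr2:26459401-26465700) was at 0.33, -0.02 and -0.03, while a second *Notch1* peak farther upstream (chr2:26472601-26480700) was at 0.53, 0.49 and 0.37. In *Notch2* and *Notch3* the null differences were 0.01 and -0.12. The target gene *Hes5* (-0.18 in null) and the feedback inhibitor gene *Nrarp* (-0.26 and -0.20 at 2 peaks) were below control, and *Mfng*, which encodes a glycosyltransferase that modifies Notch, was above control in MommeD43-GFP (0.22) and near it in null (0.02). The first *Notch1* peak was past 0.32 log2 units in both comparisons, and the second *Nrarp* peak in MommeD43-GFP (-0.36).

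Of 61 genes of neural progenitor transcription factors 7 (11.5%) had broad peaks (*Irx5*, *Mycn*, *Nfix*, *Otx1*, *Prdm16*, *Sox6* and *Sox8*), 12 in all. None of the 12 was over 0.32 log2 units from control in either comparison, and the medians were -0.04 and -0.09. Over all broad peaks 0.638% were higher and 1.26% lower past that limit in MommeD43-GFP, and 3.17% and 7.23% in null. *Mycn*, a proto-oncogene of growing progenitors, had the highest level (1.61, 1.61 and 1.83), and *Prdm16*, a radial glia chromatin regulator gene, had 4 of the 12 peaks, with null differences from -0.23 to -0.11.

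Radial glia and stem cell genes had 27 broad peaks at 9 of 22 genes, of which 11 lie in the 2.96 Mb annotated span of *Fgfr2*, most over other genes. At *Bcan*, the gene of the matrix protein brevican (chr3:87984901-87993900), the level was 1.52, 1.33 and 1.34, with a motif printed above. *Fgfr1*, a receptor gene for the FGF in the medium, had 3 peaks that diverged in the null, with differences of -0.16 and -0.41 near internal transcript starts and 0.41 farther inside, where a core motif is present. *Msi2*, an RNA-binding protein gene of stem cells, had 4, with null differences from -0.47 to 0.10. At *Fabp5*, a fatty acid carrier gene, and *Ncan*, the gene of neurocan, the null differences were 0.32 and 0.30.

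Markers of other cell types were examined next. Of 15 neuronal marker genes 5 had 13 broad peaks, 8 of them in *Rbfox3*, 1 of these at an internal transcript start of the neighbouring *Engase*. The highest, in an intron of *Rbfox3* with both motifs printed above (chr11:118735201-118746900), was at 1.63, 1.57 and 1.85. Within that gene the null differences went from -0.24 at that downstream end to 0.56 farther upstream (chr11:118645501-118651650, at 0.32, 0.40 and 0.88). Astrocyte and oligodendrocyte markers had 7 peaks at 5 of 14 genes with a median control level of 1.17, among them *Pdgfra*, the receptor gene of oligodendrocyte precursors (1.67, 1.48 and 1.52), *Mbp*, the myelin gene (1.73, 1.71 and 1.80), and *Gfap* (1.17, 1.02 and 1.17). All 7 were below control in MommeD43-GFP, with differences from -0.18 to -0.03, where 34.3% of all broad peaks were above control, and the median of -0.12 became 0.0023 after centring on GC content. In null 3 of the 7 were above control. Microglial, endothelial and mesenchymal markers had 10 peaks at 6 of 12 genes, led by *Col1a1*, a collagen gene (1.51, 1.38 and 1.56), and *Cx3cr1*, a microglial receptor gene whose annotated span reaches over its neighbours, had 4, of which the lowest was at 0.05, -0.08 and -0.31. ChIP-seq signal at a marker gene does not show that the gene is expressed, and no expression was measured here.

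**Figure D5:**
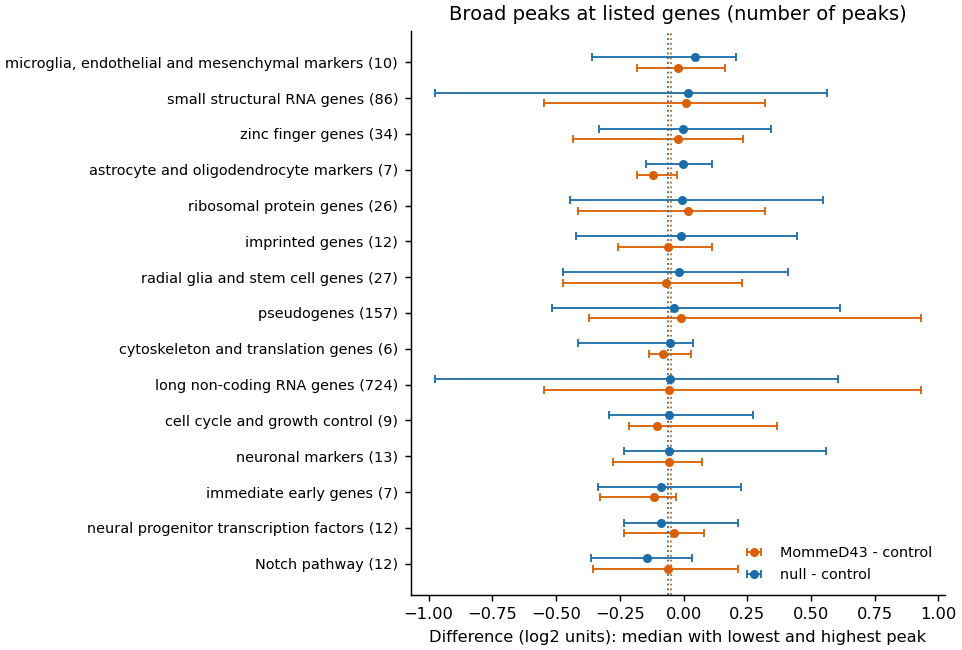
Difference from control (log2 units, x axis) of broad peaks at the genes of each list with at least 5 of them (y axis, number of peaks in brackets), for MommeD43-GFP (orange) and null (blue). Points are medians and bars run from the lowest to the highest peak, and dotted lines mark the medians over all broad peaks (-0.048 and -0.061). Notch pathway genes have the lowest null median (-0.14), and every bar of the null crosses 0.

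Genes that respond within minutes to growth factors had 7 broad peaks at 7 of 25 genes. All 7 were below control in MommeD43-GFP, with *Atf3*, a stress-induced transcription factor gene, at 0.90, 0.58 and 0.57 and *Dusp1*, a MAP kinase phosphatase gene, at 0.86, 0.58 and 0.77. In null *Junb* was above control (0.91, 0.88 and 1.13). Their GC content had a median of 53.8%, and after centring on GC content the MommeD43-GFP median moved from -0.12 to -0.0073. Of 19 cell cycle genes 6 had 9 peaks, the highest at *Ccnd1*, the cyclin D1 gene (1.33, 1.17 and 1.26). *Ccnd3* had 3, of which the one at its 5′ end with that of *Taf8* was above control in both (0.37 and 0.27), and one inside the gene was below it in both (-0.13 and -0.29).

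A list of 14 genes covered CTCF, cohesin and related factors, and also held *Smchd1*, *Lrif1*, *Yy1* and *Zfp143*. Of the 14, 2 (14.3%) had a broad peak each, a share near that of all coding genes. One covered *Ctcfl*, the germline paralogue of *Ctcf* (chr2:173104051-173110050), at 1.09, 0.93 and 0.82, and one lay in *Mau2*, a cohesin loader gene (chr8:70020751-70029300), at -0.12, -0.06 and -0.38.

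Of 9414 long non-coding RNA genes 728 (7.73%) had a broad peak. They met 724 broad peaks, with medians of -0.06 and -0.05. Of the 724, 4 were over 0.32 log2 units higher and 14 lower in MommeD43-GFP, and 24 and 49 in null. Over all broad peaks these shares were 0.638% and 1.26% in MommeD43-GFP, and 3.17% and 7.23% in null. Of 11585 pseudogenes 160 (1.38%) had one, at 157 broad peaks with medians of -0.01 and -0.04, and of 3619 small structural RNA genes 109 (3.01%), at 86 broad peaks with medians of 0.01 and 0.02. Of the 86, apart from the ribosomal RNA peak, none was 1.5-fold below control in either comparison. Over all broad peaks 0.0193% were in MommeD43-GFP and 0.522% in null.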

How the data were processed

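CTCF ChIP-seq was performed on 8 libraries with an antibody to CTCF, and 1 input library was not used here because the table has no column for it. Per the labels and the study's methods, the authors trimmed reads with Trim Galore 0.4.4 and cutadapt 2.9, checked them with FastQC 0.11.8, aligned them to GRCm38 with Bowtie2 2.3.4.1, used SAMtools 1.7, and merged the peaks that SeqMonk found in each genotype's libraries; R 4.2.0 is also listed. Removal of duplicate reads is not given in the sources used here. The deposited values are log2 RPM (reads in proportion to library size) over each merged peak, averaged by the authors over the libraries of a genotype and not divided by length. The steps between the lowest values gave geometric mean library sizes of 41.7, 49.2 and 49.98 M reads for control, MommeD43-GFP and null, and these sizes gave the counting errors.

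Single libraries cannot be taken from the pooled columns, so the branch of the plan for pooled values was used: differences of log2 values, counts past 0.32 log2 units, 1.5-fold and 2-fold, and no test. Levels per kb were obtained by subtracting the log2 of the length in kb. Genes came from GENCODE M21, sequence from RefSeq GRCm38.p6. A start is that of any annotated transcript, so it can lie inside a gene, and a gene's 5′ end is its outermost base. A peak took the gene with a transcript start within 1 kb, else the gene it overlapped, else the nearest start within 50 kb. Peaks were named if among the 10 longest, the 10 highest or 5 lowest per kb in control, the 8 furthest apart each way in a comparison, or the highest or most different of a gene list. Groups of 3 or more peaks were too many to name, and the largest are given. The values of 2 single peaks are not reported here. Other members named in the gene lists were chosen after their values were seen. The members, the 22 lists and the rules were chosen with earlier results of these data known. Kinase and binding protein genes whose symbols begin like those of ribosomal proteins were left out of that list. Alternatives covered the length limit, scaling, GC content, repeats, merging of neighbours, transcript start window and motif. Calculations used matplotlib 3.10.9 for plots, statsmodels 0.14.6 for loess, scipy 1.17.1 for intervals, and pandas 2.3.3 with numpy 2.4.6 under Python 3.11.15, and the scripts were tested on simulated data.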

Additional observations from a re-analysis of the deposited data

Results flagged for a closer look

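The Y chromosome and the X chromosome lie outside the comparisons above, and both held broad peaks with values of note. The single broad peak of the Y chromosome, 12750 bp long in *Gm47283* near its end, had log2 RPM of -1.43 in control, -1.21 in MommeD43-GFP and 8.91 in null. Shorter Y peaks near it were at -5.48, -5.77 and 4.55 (chrY:90760051-90762600) and at -0.99, -1.15 and 3.49 (chrY:90740101-90740550). A Y peak far from these (chrY:10705351-10705950) was at -1.70, -0.89 and -1.70, so it was not raised in the null. The 16 broad peaks of the X chromosome had a median null difference from control of 0.24, where broad peaks of chromosomes 1 to 19 had -0.061. Its order-statistic 95% interval of 0.12 to 0.71 treats peaks as independent, though they share libraries, and does not cover the spread between lines. None of these differences was tested, since each genotype has 1 pooled value.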

How the results depend on the processing

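No paired analysis was possible because the table holds 1 pooled value per genotype, and for the same reason no library could be left out. Values are given in the order MommeD43-GFP less control, null less control and MommeD43-GFP less null, and counts of peaks 1.5-fold apart as higher and lower. With a limit of 4 kb, the medians against control were -0.040 and -0.047 and the counts 5 and 2, 39 and 60, and 14 and 7. With 7.5 kb the medians were -0.066, -0.087 and 0.016 and the counts 0 and 0, 1 and 3, and 1 and 1. With 10 kb they were -0.072, -0.097 and 0.021, with 0 and 0, 0 and 0, and 0 and 1. The median levels per kb in control, MommeD43-GFP and null were 0.77, 0.75 and 0.77 at 4 kb, 0.88, 0.82 and 0.81 at 7.5 kb and 0.91, 0.85 and 0.83 at 10 kb. The share at transcript starts was 45.6%, 62.3% and 69.0%, and the share with a core motif 30.4%, 44.8% and 52.9%.

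Centring on GC content reversed both medians against control, to 0.021 and 0.061, moved that between mutants to -0.041, and left 0 peaks lower in MommeD43-GFP and 4 lower in null. Centring each column on its median gave -0.027, -0.00043 and -0.036, with 0 peaks lower in MommeD43-GFP and, in null, 24 higher and 12 lower. Quantile normalization gave -0.0080 and 0.043 for MommeD43-GFP less control and MommeD43-GFP less null, null counts of 4 and 58, counts of 18 and 1 between mutants, and levels per kb of 0.81, 0.81 and 0.78. Taking off a loess trend on level gave -0.0073, -0.068 and 0.053, null counts of 5 and 49, and 10 and 1 between mutants. Why the scalings differ was not tested. Broad peaks with a core motif only, a choice made after seeing the data, had null and mutant medians of -0.025 and -0.027 and counts of 0 and 0, 2 and 1, and 0 and 0. Adding the sex chromosomes gave 15 peaks higher in null and 4 lower in MommeD43-GFP than in null. Past 0.32 log2 units the counts were 33 and 65, 164 and 374, and 153 and 59, and at 2-fold 0 and 0, 1 and 0, and 1 and 0. Shares at transcript starts were 48.7% within 500 bp, 66.6% within 5 kb and 43.5% for protein-coding genes only, and 34.2% lay at 5′ ends of genes, a measure added after seeing the data. The relaxed motif was present in 82.3% of peaks. The other 42 values stayed within their limits. The SD of differences expected from counting alone was 0.05 to 0.06 over broad peaks. Single peaks can have a larger counting SE, such as 0.10 for null less control at *Gm49692*. The spread between lines is unknown.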

Other observations

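Broad peaks made up 0.185% of the peaks of the X chromosome. In the null 5 of the 16 were at least 1.5-fold above control and 1 was at least 1.5-fold below it. Over broad peaks of chromosomes 1 to 19 these shares were 0.174% and 0.522%, and over all peaks of those chromosomes 10.5% and 10.2%. The shares over all X peaks were not obtained, so whether shorter X peaks moved alike was not tested. In MommeD43-GFP none of the 16 was over 0.32 log2 units from control, where 0.638% of broad peaks on chromosomes 1 to 19 were higher and 1.26% lower. At *Tmem164* the level per kb was 0.72 in control, 0.85 in MommeD43-GFP and 1.43 in null. At *Glod5* it was 0.23, 0.44 and 0.97, and near *Samt1*, a testis gene, it was 0.26, 0.30 and 1.03. The peak that was lower lay at an internal transcript start of *Stard8*, with 0.09, -0.14 and -0.53. The median difference of MommeD43-GFP from control over the 16 was -0.0046 (order-statistic 95% interval -0.12 to 0.18, which treats peaks as independent).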
